A study of Mus musculus with 4 samples.

Results

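Cdkn1b, Cdkn2a, Cdkn2b, Cdkn2c, Cdkn2d, Rb1, Rbl1 and Rbl2 encode inhibitors of cyclin-dependent kinases and the proteins of the Rb family, and their transcripts were followed in cultured mouse spermatogonia. The 8 genes were chosen by name, and each matched 1 row of a count table of 32285 genes. All 8 passed the filter on low counts and were among the 16005 genes tested. The cells were GS cells, spermatogonia grown in culture from the testes of mice aged 10 days, all of wild-type genotype. They came from strain C57BL/6 (B6 here) or from strain 129, with 2 libraries of each strain and no further treatment named in the labels. The titles of the B6 libraries carry the mark F0, which those of 129 lack, and the labels do not say what it stands for. The sources used here do not give the substrain of 129, the number of animals behind each culture or the use of feeder cells. Whether the 2 libraries of a strain were grown apart is not stated, so the p-values reflect only how far these libraries spread, which may be technical.

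Entry into S phase is controlled by cyclin-dependent kinases that phosphorylate the Rb proteins and thereby free E2F transcription factors. INK4 proteins, made from Cdkn2a, Cdkn2b, Cdkn2c and Cdkn2d, block the kinases Cdk4 and Cdk6, whereas the p27 protein of Cdkn1b binds a wider range of cyclin-kinase complexes. Rb1, Rbl1 and Rbl2 encode the pocket proteins Rb, p107 and p130, of which p130 is typical of resting cells and p107 of dividing cells. In the testis, Cdkn2c and Cdkn2d are known for their part in the exit of spermatogonia from the mitotic cycle, the Arf product of Cdkn2a is made in mitotic spermatogonia, and Rb1 is needed to maintain the spermatogonial stem cell pool.

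The DNA upstream of 5 start sites is shown because Cdkn2a has 2 promoters that feed 1 row of counts, because Rbl1 and Rbl2 are close relatives with different values below, and because Cdkn1b and Rbl2 were both highest in the same library. RefSeq windows on build GRCm38.p6, from 250 bases before to 50 after a start site, were found for 7 of the 8 genes. They numbered 9 in all, and Rb1 had none. Each stretch runs 5′ to 3′ on the gene's strand and stops before the first annotated exon base. Capitals mark E2F words (TTTCCCGC, TTTGGCGC, TTTCGCGC or TTTGCCGC), the CCAAT word and the cell cycle word TTTGAA, searched on both strands.
Cdkn2a, start of the Arf transcript, chr4:89294654-89294869, minus strand: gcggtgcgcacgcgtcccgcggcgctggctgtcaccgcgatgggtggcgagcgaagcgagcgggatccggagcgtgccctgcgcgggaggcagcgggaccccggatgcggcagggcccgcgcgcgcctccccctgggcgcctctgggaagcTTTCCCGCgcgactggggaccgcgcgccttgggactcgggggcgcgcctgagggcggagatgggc
Cdkn2a, start of the Ink4a transcript, chr4:89282193-89282442, minus strand: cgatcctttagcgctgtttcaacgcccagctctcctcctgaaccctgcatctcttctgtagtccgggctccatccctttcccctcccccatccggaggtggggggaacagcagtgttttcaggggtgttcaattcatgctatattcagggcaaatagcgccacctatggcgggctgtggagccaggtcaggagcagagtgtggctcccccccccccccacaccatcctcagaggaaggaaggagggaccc
Rbl1, chr2:157204535-157204784, minus strand: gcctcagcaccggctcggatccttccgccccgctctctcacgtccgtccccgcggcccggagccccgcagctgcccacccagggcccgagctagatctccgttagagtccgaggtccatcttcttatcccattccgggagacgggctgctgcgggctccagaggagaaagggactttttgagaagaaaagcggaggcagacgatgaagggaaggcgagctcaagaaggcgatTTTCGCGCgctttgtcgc
Rbl2, chr8:91069807-91070056, plus strand: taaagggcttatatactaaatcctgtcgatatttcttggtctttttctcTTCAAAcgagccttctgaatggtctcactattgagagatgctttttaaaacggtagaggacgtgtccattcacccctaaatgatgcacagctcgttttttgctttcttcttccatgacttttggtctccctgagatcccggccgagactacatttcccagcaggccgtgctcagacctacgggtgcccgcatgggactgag
Cdkn1b, chr6:134920151-134920400, plus strand: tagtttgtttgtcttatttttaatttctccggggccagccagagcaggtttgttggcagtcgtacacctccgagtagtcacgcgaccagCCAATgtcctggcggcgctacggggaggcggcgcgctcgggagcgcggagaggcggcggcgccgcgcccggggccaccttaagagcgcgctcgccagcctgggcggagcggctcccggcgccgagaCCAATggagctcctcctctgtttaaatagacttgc

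An E2F word stood in 2 of the 9 windows, those of Rbl1 and of the Arf start of Cdkn2a, where 2.26% of all 32851 windows of the same length held any of the 4 words. The Rbl1 word was TTTCGCGC, beginning at position -18 from the start site, and the Arf word was TTTCCCGC at position -99. The stretches before the Ink4a start and before Rbl2 held none of these 4 words. CCAAT was present upstream of Cdkn1b at positions -161 and -35, and also in windows of Cdkn2a (Ink4a start), Cdkn2c and Cdkn2d. Of all windows, 37.4% held that word. TTTGAA lay on the opposite strand upstream of Rbl2 at position -201 and of Cdkn2b at position -161, a word in 17.9% of all windows. No member window held the FOXO word GTAAACA, found in 3.65% of all windows. A match describes letters in the reference of B6 and is not evidence of binding, and 129 alleles were not read here.

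Library totals ran from 20375086 to 25374801 counts, and the 8 genes took 4420 to 5035 counts per library. Of the 16005 genes, edgeR called 2.86% different between the strains, 1.84% higher and 1.02% lower in 129. Values below are CPM, counts divided by the scaled library size, as mean ± SD over n = 2 libraries. Fold changes are on the log2 scale, above 0 where 129 was higher, and SE is the standard error. The defining germ cell genes were present in every library, with Ddx4, a germ cell RNA helicase, at 276 to 517 CPM and Dazl, a germ cell RNA-binding protein, at 635 to 1052 CPM.

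None of the 8 genes differed between the strains by edgeR's quasi-likelihood test after adjustment over all genes, against the 2.86% called among all genes. The count was also 0 by DESeq2, which called 15.3% of all genes, and 0 by limma-voom, which called 1.64%. At an unadjusted p under 0.05, edgeR and limma-voom had 0 of the 8 and DESeq2 had 1, Rbl2, where edgeR had 28.1% of all genes. In 5 of the 8 genes the fold change was above 0 and in 3 below, where 8142 and 7863 of the 16005 genes were. The median was 0.61 over the 8 and 0.015 over all genes tested. With 2 libraries per strain, the 95% intervals of these differences were wide, and a missed threshold does not show equal levels. Libraries of the strains did not overlap in 3 of the 8 genes, Cdkn2b, Cdkn2c and Cdkn2d, each higher in 129, where 31% of all genes were apart in that direction, 29.2% in the other and 60.1% in either.

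**Figure D1:**
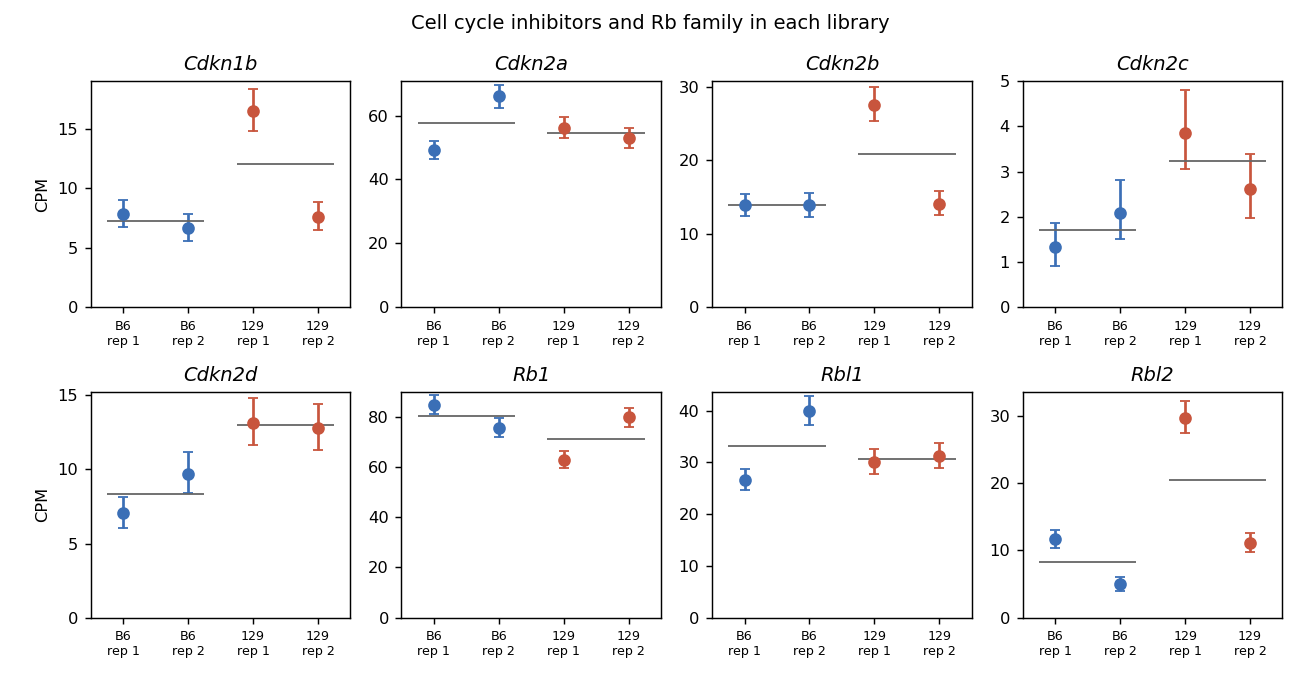
CPM of each gene (vertical axes, from 0) in the 4 libraries (horizontal axes). Points are libraries, with exact 95% Poisson intervals for counting error only, and grey lines are strain means. Cdkn1b, Cdkn2b and Rbl2 stand out in 129 replicate 1, at 16.5, 27.5 and 29.7 CPM.

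Per length of exon, Cdkn2a was the most abundant of the 8 genes in every library. It had 49.2 ± 10.2 CPM per kb of exon in B6 and 46.6 ± 1.999 in 129 (SD, n = 2). Rb1 at 13.3 ± 1.08 and 11.8 ± 1.99 CPM per kb and Cdkn2b at 9.97 ± 0.0011 and 15.0 ± 6.84 came next in B6 and 129, and their order was not the same in every library. Cdkn2d (5.32 ± 1.20 and 8.24 ± 0.15) and Rbl1 (5.55 ± 1.57 and 5.11 ± 0.14) overlapped in B6, and Cdkn2d stood above Rbl1 in both 129 libraries. Cdkn1b (1.58 ± 0.18 and 2.65 ± 1.39) and Rbl2 (1.10 ± 0.63 and 2.70 ± 1.74) did not differ beyond their spread. Cdkn2c was lowest in each library except B6 replicate 2, where Rbl2 was at 0.66 and Cdkn2c at 0.77 CPM per kb.

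**Figure D2:**
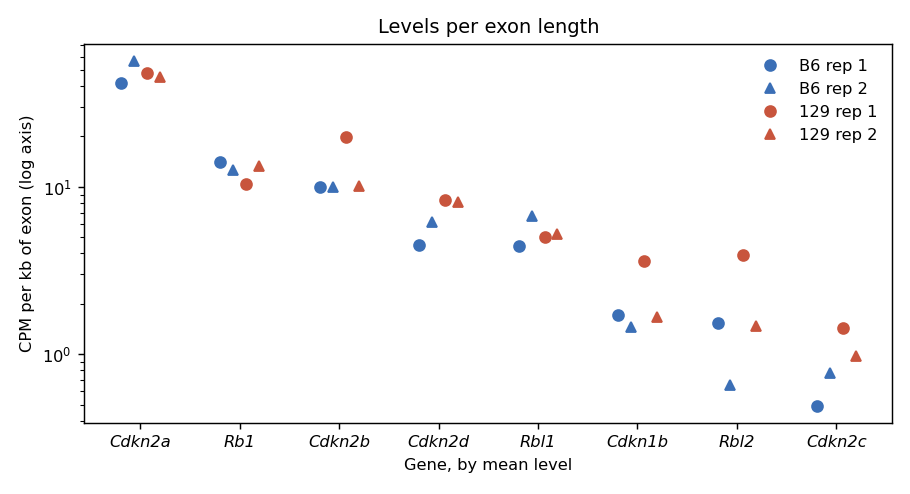
Level of each gene in CPM per kb of annotated exon (vertical log axis) with genes ordered by their mean (horizontal axis). Circles are replicate 1 and triangles replicate 2 of B6 (blue) and 129 (red). Cdkn2a lies between 42.0 and 56.3 in all 4 libraries and Cdkn2c between 0.49 and 1.44.

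Cdkn1b, which lies at chr6:134920401-134925513 of GRCm38, was higher in 1 library only. It had 7.79 and 6.63 CPM in the B6 libraries and 16.5 and 7.59 CPM in 129 replicates 1 and 2. The second 129 library thus fell between the B6 libraries, and the groups overlapped. The means were 7.21 ± 0.82 CPM in B6 and 12.1 ± 6.32 CPM in 129, with a log2 fold change of 0.74 (SE 0.48, 95% interval -0.41 to 1.88, edgeR adjusted p = 0.36). Without 129 replicate 1 the log2 fold change was 0.074, and without 129 replicate 2 it was 1.19. Replicate 1 exceeded replicate 2 by 1.12 on the log2 scale in 129, a gap larger than that of 91.5% of all genes tested, and 0.23 in B6.

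Cdkn2a, whose row joins the transcripts of p16 and of Arf, had similar values in all libraries. The gene spans chr4:89274471-89294653, and the counts cannot be divided between the promoters shown above. B6 replicates 1 and 2 stood at 49.2 and 66.0 CPM and 129 replicates 1 and 2 at 56.2 and 52.9 CPM. Both 129 values lay inside the B6 range. The means were 57.6 ± 11.9 and 54.6 ± 2.34 CPM, with a log2 fold change of -0.078 (SE 0.24, 95% interval -0.64 to 0.49, edgeR adjusted p = 0.86). The sign turned without B6 replicate 2 (0.11).

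Cdkn2b, which encodes p15 and lies next to Cdkn2a at chr4:89306299-89311039, repeated the pattern of Cdkn1b. Its B6 libraries were nearly equal at 13.86 and 13.86 CPM, and the 129 libraries stood at 27.5 and 14.1 CPM. The libraries of the strains did not overlap, but 129 replicate 2 was above B6 by less than its counting error, with an exact 95% Poisson interval of 12.5 to 15.8 CPM. The log2 fold change was 0.59 (SE 0.41, 95% interval -0.38 to 1.55, edgeR adjusted p = 0.39), and without 129 replicate 1 it was 0.028. The ratio of Cdkn2a to Cdkn2b per kb was 4.21 and 5.65 in B6 replicates 1 and 2 and 2.42 and 4.46 in 129 replicates 1 and 2.

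Cdkn2c, which encodes p18 (chr4:109660876-109667189), was the scarcest INK4 gene. It had 33 and 42 counts in B6 replicates 1 and 2 and 80 and 55 counts in 129 replicates 1 and 2, or 1.33, 2.08, 3.86 and 2.61 CPM. The strains did not overlap, yet the exact 95% Poisson intervals of B6 replicate 2 (1.499 to 2.81 CPM) and 129 replicate 2 (1.97 to 3.39 CPM) did. The log2 fold change was 0.94 (SE 0.51, 95% interval -0.28 to 2.17, edgeR adjusted p = 0.28), and with each library left out it ran from 0.63 to 1.24.

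Cdkn2d, which encodes p19 of the INK4 family (chr9:21288410-21291407), was the member whose 129 libraries were closest to each other among those apart from B6. B6 replicates 1 and 2 had 7.03 and 9.70 CPM and the 129 libraries 13.1 and 12.8 CPM. The means were 8.37 ± 1.89 and 12.97 ± 0.24 CPM, with a log2 fold change of 0.64 (SE 0.38, 95% interval -0.26 to 1.54, edgeR adjusted p = 0.32). With each library left out, the log2 fold change ran from 0.41 to 0.84.

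**Figure D3:**
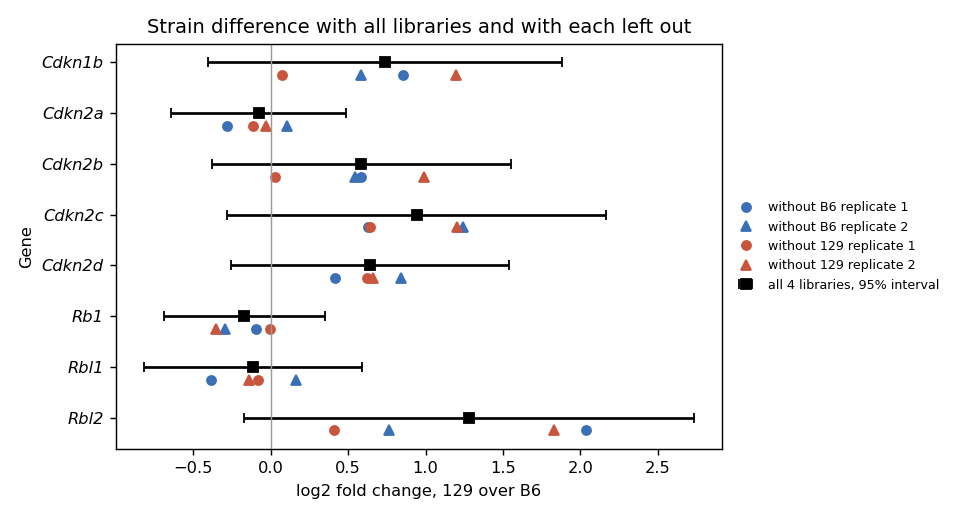
Log2 fold change of 129 over B6 (horizontal axis) for each gene (vertical axis). Black squares use all 4 libraries, with 95% intervals of the edgeR fit, and coloured marks leave out 1 library each. Cdkn1b and Cdkn2b fall to 0.074 and 0.028 without 129 replicate 1, and the marks of Cdkn2d lie at 0.41 to 0.84.

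Rb1, the founding member of the Rb family (chr14:73183673-73325822), had the highest CPM of the 8 genes and little difference between strains. B6 replicates 1 and 2 stood at 84.8 and 75.6 CPM and 129 replicates 1 and 2 at 62.8 and 79.7 CPM. The second 129 library lay inside the B6 range and the first below it. The log2 fold change was -0.17 (SE 0.22, 95% interval -0.69 to 0.35, edgeR adjusted p = 0.65). It was -0.0049 without 129 replicate 1 and -0.35 without 129 replicate 2. The exons of Rb1 overlap those of Rcbtb2 and Lpar6 on the opposite strand over 8.11% and 6.78% of their length. Lpar6 was at 0.30 to 4.06 CPM and Rcbtb2 at 16.4 to 40.1 CPM. The strand option of counting is not stated, so whether reads of overlapping genes entered each other's rows, here and for Rbl2 below, was not tested.

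Rbl1, which encodes p107 (chr2:157145893-157204534), also overlapped between the strains. B6 replicates 1 and 2 had 26.6 and 39.9 CPM, on either side of the 129 values of 30.0 and 31.2 CPM. The log2 fold change was -0.12 (SE 0.30, 95% interval -0.82 to 0.59, edgeR adjusted p = 0.83), and it was 0.16 without B6 replicate 2.

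Rbl2, which encodes p130 (chr8:91070057-91123844), had the highest fold change of the 8 genes and, on the log2 scale, the widest gap between the libraries of each strain. B6 replicates 1 and 2 stood at 11.7 and 4.95 CPM and 129 replicates 1 and 2 at 29.7 and 11.1 CPM. The lower 129 library was just below the higher B6 library, so the groups overlapped. The means were 8.30 ± 4.74 CPM in B6 and 20.4 ± 13.2 CPM in 129, with a log2 fold change of 1.28 (SE 0.61, 95% interval -0.17 to 2.74, edgeR adjusted p = 0.23, and DESeq2 adjusted p = 0.15). Leaving out 129 replicate 1 gave 0.41, B6 replicate 2 gave 0.76, 129 replicate 2 gave 1.83 and B6 replicate 1 gave 2.04. Replicate 1 exceeded replicate 2 by 1.23 on the log2 scale in B6 and by 1.42 in 129, gaps larger than those of 92.9% and 95.3% of all genes tested. Exons of Rbl2 overlap those of Aktip on the opposite strand over 9.17% of their length, and those of Gm45464, also on the opposite strand, over 11.8%. Gm45464 had 2 to 16 counts per library and was below the filter. Aktip was at 39.4 and 25.8 CPM in B6 and 36.0 and 33.05 CPM in 129.

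The 3 pocket protein genes together summed to 20.1, 19.9, 19.4 and 19.9 CPM per kb in B6 replicates 1 and 2 and 129 replicates 1 and 2. Within this sum the share of Rbl2 was 7.68% and 3.29% in the B6 libraries and 20.3% and 7.36% in the 129 libraries. Rb1 held 70.2%, 63.2%, 53.9% and 66.5% in the same order, lowest where Rbl2 was highest. Shares of a sum move against each other by construction, and the CPM of Rb1 itself was also lowest in that library. The ratio of Rb1 to Rbl2 per kb was 9.15 and 19.2 in B6 and 2.66 and 9.03 in 129.

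The 4 INK4 genes together summed to 56.9 and 73.3 CPM per kb in B6 and 77.6 and 64.4 in 129, with overlap between the strains. Cdkn2a held 73.8% and 76.9% of the sum in B6 and 61.8% and 70.1% in 129. Because its row joins the transcripts of p16 and of Arf, this share is not that of p16 alone. The share of Cdkn2d was 7.85% and 8.41% in B6 and 10.8% and 12.6% in 129, and that of Cdkn2c 0.87% and 1.06% against 1.85% and 1.51%.

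**Figure D4:**
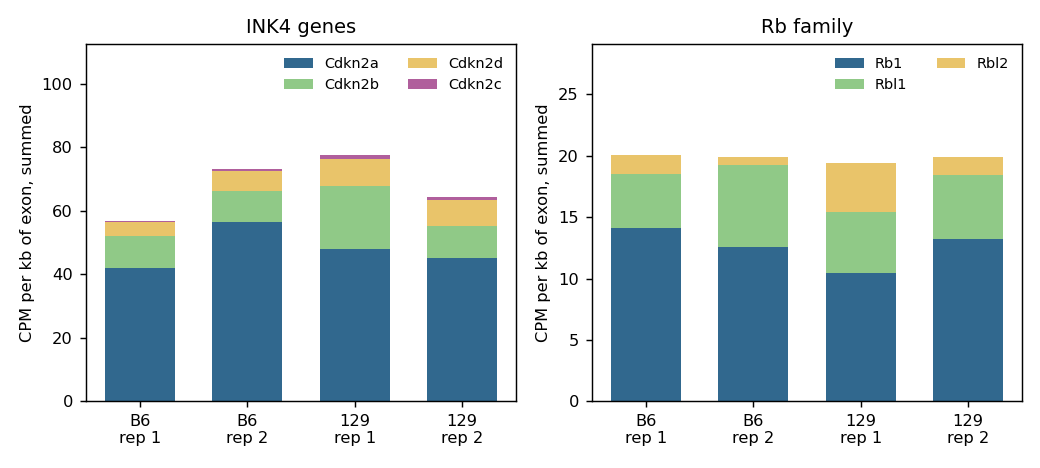
Summed CPM per kb of exon (vertical axes, from 0) of the INK4 genes (left) and the Rb family (right) in each library (horizontal axes), with colours for single genes. The Cdkn2a part joins the transcripts of p16 and of Arf. The Rb family sum lies between 19.4 and 20.1, while the Rbl2 part runs from 3.29% to 20.3% of it.

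Of the 8 genes, 5 had their highest value in 129 replicate 1, as had 31.3% of all genes tested. The summed levels of the fibroblast, Sertoli, endothelial, peritubular muscle and macrophage markers were also highest there. Those of the spermatogonial and Leydig markers were lowest there. All 23 genes of the fibroblast list were tested, and 22 of them were higher in replicate 1 than in replicate 2 of 129, by a median of 1.29 on the log2 scale. In B6, 20 of 23 were higher in replicate 1, by a median of 0.36. Their summed level was 8184 and 5519 CPM in B6 and 10531 and 4054 CPM in 129, and no marker was at 0. A large part of that sum was Fn1, at 1775 and 1274 CPM in B6 and 4067 and 1667 CPM in 129. Single markers differed from the sum between strains, since Col1a1, a collagen gene, had 1113 and 664 CPM in B6 and 465 and 190 CPM in 129. Between the strains the fibroblast list had a median of 0.15, with 1 member, Pdgfra, called higher and 0 lower by edgeR and 7 higher and 5 lower by DESeq2. Without 129 replicate 1 that median was -0.65, and without 129 replicate 2 it was 0.67. The call of Pdgfra ended without a filter, with the filter of 5 CPM in 2 libraries and by limma-voom. It was also lost when either B6 library or 129 replicate 1 was left out, in fits that called few genes of the whole table. The part of these markers in the values of Cdkn1b, Cdkn2b and Rbl2 was not tested, and fewer cells of a type cannot be told apart from less RNA per cell in such libraries.

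Spermatogonial markers moved the other way within 129. Of 12 genes 1 was higher in 129 replicate 1 than in replicate 2, with a median log2 ratio of -0.31, and their sum was 3718 and 3966 CPM in B6 and 2804 and 3626 CPM in 129. Between strains 1 was called higher, Etv5, and 1 lower, Uchl1, by edgeR, and 2 and 3 by DESeq2, and the median was -0.50. The median with each library left out ran from -0.79 to -0.26. Both calls were lost without B6 replicate 1, B6 replicate 2 or 129 replicate 1. Those fits called few genes of the whole table, so the loss says little about these markers. The fibroblast sum was above the spermatogonial sum in every library, and the sums of the remaining lists were lower. Lists of unlike size cannot rank cell types. The Sertoli list (11 of 12 tested) summed to 560 to 652 CPM in B6 and 678 to 922 CPM in 129, most of it Tjp1, a widely expressed tight junction gene at 450 to 555 CPM. Its median log2 fold change was 1.52, with 9 of 11 above 0 and 2 called higher in 129, Rhox5 and Clu. Rhox5, an X-linked homeobox gene, was at 0.24 and 0.79 CPM in B6 and 64.5 and 19.4 CPM in 129, and Clu, which encodes clusterin, at 3.78 and 10.1 CPM in B6 and 193 and 90.5 CPM in 129. The endothelial list (6 of 6) summed to 23.5 to 24.3 CPM in B6 and 86.2 to 204 CPM in 129, with 2 called higher, Cdh5 and Eng, and a median of 0.78. The peritubular muscle list (5 of 5) stood at 23.4 to 80.5 CPM in B6 and 39.9 to 92.2 CPM in 129, with 1 called higher, Des, and the macrophage list (4 of 6) at 24.2 to 28.2 CPM and 17.9 to 48.7 CPM. In the Leydig list 1 of 6 genes was tested, at 5.79 to 8.11 CPM in B6 and 3.48 to 3.89 CPM in 129. No Sertoli, endothelial or peritubular gene was called without B6 replicate 1, B6 replicate 2 or 129 replicate 1. The part of these cell type markers in the values of the 8 genes was not tested.

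The kinases that INK4 proteins block, with their D cyclins, had 0 of 5 genes called by edgeR (median 0.32) and 1 by DESeq2, Ccnd2. Ccnd2, the cyclin D2 gene, was at 473 and 550 CPM in B6 and 835 and 1034 CPM in 129, with a log2 fold change of 0.87 (SE 0.19). It did not pass in edgeR (adjusted p = 0.055) but did with upper-quartile factors (0.049) and library totals (0.047), and the strains did not overlap. Ccnd1 (cyclin D1) was at 133 and 179 CPM in B6 and 282 and 223 CPM in 129, and Cdk4 at 193 and 248 CPM against 289 and 261 CPM. Cdk6 was lower in both 129 libraries, at 64.9 and 26.1 CPM in B6 and 23.5 and 16.5 CPM in 129, without passing (log2 fold change -1.19, or -0.39 without B6 replicate 1). Ccnd3 was at 116 ± 13.7 and 116 ± 11.3 CPM.

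Among targets of the wider inhibitors, 0 of 7 genes of cyclins E, A and B and their kinases were called by edgeR (median -0.18) and 1 by DESeq2, the mitotic cyclin gene Ccnb1. Ccnb1 was at 171 and 167 CPM in B6 and 94.2 and 114 CPM in 129 (log2 fold change -0.70). Ccna2 was at 194 ± 9.02 and 140 ± 28.9 CPM, Cdk2 at 90.1 ± 15.0 and 95.6 ± 15.6 CPM and Ccne1 at 26.2 ± 8.40 and 32.4 ± 5.66 CPM in B6 and 129. Of the 3 other inhibitor genes 0 were called by edgeR (median -0.65) and 1 by DESeq2, Cdkn1a. Cdkn1a, which encodes p21, had 77.3 and 73.0 CPM in B6 and 379 and 117 CPM in 129, so it too was highest in 129 replicate 1 (log2 fold change 1.72, edgeR adjusted p = 0.097). Without 129 replicate 1 the log2 fold change was 0.64 (edgeR adjusted p = 0.38), and without 129 replicate 2, which leaves the highest library alone in its strain, it was 2.34 (edgeR adjusted p = 0.012). Cdkn1c, which encodes p57, was at 63.2 and 31.9 CPM in B6 and 23.3 and 37.6 CPM in 129.

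E2F and DP factors, the partners of the Rb family, had 0 of 10 genes called by edgeR (median -0.030) and 1 by DESeq2, E2f6. E2f1, an activating factor bound by Rb, was at 108 and 97.4 CPM in B6 and 81.6 and 102 CPM in 129. E2f4, the main partner of p107 and p130, was at 37.0 and 40.7 CPM in B6 and 71.1 and 54.6 CPM in 129, without overlap, and did not pass (log2 fold change 0.69). E2f6, a repressor that does not bind pocket proteins, was at 143 ± 10.3 and 74.6 ± 16.6 CPM, and Tfdp1 at 155 ± 22.1 and 142 ± 1.16 CPM. Genes of the MuvB core and its partners, the complex that p107 and p130 join, had 0 of 7 called (median -0.34), and DESeq2 called 1, Mybl2, which encodes B-Myb, at 78.5 ± 1.02 and 41.9 ± 4.73 CPM. Rbbp4 was at 463 ± 43.9 and 366 ± 28.4 CPM, and Foxm1, a mitotic activator, at 153 ± 15.1 and 221 ± 45.7 CPM.

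S phase genes known as E2F targets had 0 of 20 called by edgeR. Of these, 17 of 20 fold changes were below 0 (median -0.26), as were 7863 of all 16005 genes tested (median 0.015). The 20 genes come from the same 4 libraries and are not independent observations. DESeq2 called 1 lower, Pola1, the catalytic subunit of DNA polymerase alpha, at 56.0 and 57.7 CPM in B6 and 25.1 and 27.5 CPM in 129. Pola1 also passed in edgeR with upper-quartile factors and with library totals. Without B6 replicate 2 or 129 replicate 1, 14 of 20 were below 0 (medians -0.19 and -0.16). Mcm2 and Mcm4, subunits of the replicative helicase, were at 500 ± 87.0 and 419 ± 86.4 CPM in B6 and 498 ± 84.3 and 378 ± 63.6 CPM in 129.

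**Figure D5:**
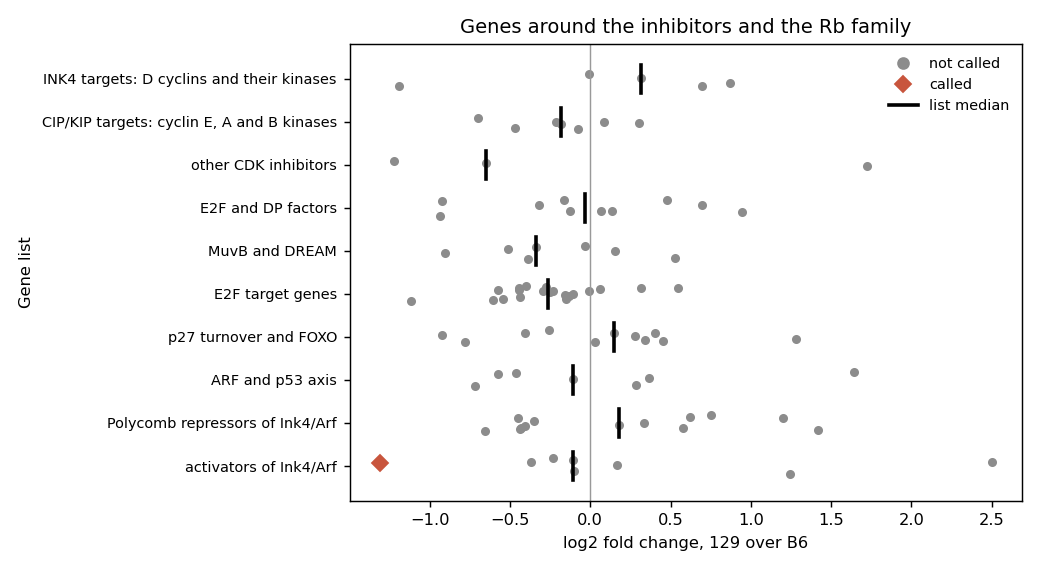
Log2 fold change of 129 over B6 (horizontal axis) for the genes of 10 lists around the inhibitors and the Rb family (vertical axis). Grey points were not called, the red diamond was called by edgeR, and black bars are list medians. The E2F target genes lie mostly left of 0, with a median of -0.26, and the called gene is Smad3.

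Genes that act on p27, its ubiquitin ligase and the FOXO factors, had 0 of 11 called by edgeR (median 0.15). DESeq2 called Rnf123 higher and Foxo1 and Foxo3 lower. Foxo1, a transcription factor that can induce Cdkn1b and Rbl2, was at 292 and 281 CPM in B6 and 128 and 174 CPM in 129, and Foxo3 at 315 and 315 CPM in B6 and 176 and 191 CPM in 129. Neither overlapped between the strains. Skp2, the subunit that recognises p27 for degradation, was at 67.9 ± 1.15 and 86.2 ± 11.3 CPM, and its cofactor Cks1b at 58.7 ± 2.05 and 49.0 ± 6.63 CPM. The ligase subunits Cul1 (239 ± 30.0 and 328 ± 47.9 CPM) and Skp1a (419 ± 5.65 and 317 ± 11.4 CPM) did not pass.

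Along the axis of Arf and p53, 0 of 7 genes were called by edgeR (median -0.11), while DESeq2 called Myc higher and Huwe1, a ubiquitin ligase bound by Arf, lower. Mdm2, the p53 ligase that Arf restrains, was at 231 ± 34.2 and 215 ± 54.2 CPM, and Trp53 at 103 ± 18.4 and 126 ± 9.07 CPM. Npm1, the nucleolar partner of Arf, was at 1036 ± 216 and 695 ± 91.6 CPM and Huwe1 at 1830 ± 21.0 and 1114 ± 173 CPM. Myc had 7.11 and 6.68 CPM in B6 and 32.2 and 10.95 CPM in 129.

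Polycomb genes, whose products repress the Cdkn2a and Cdkn2b locus, had 0 of 13 called by edgeR (median 0.18), and DESeq2 called Pcgf2, Ring1 and Cbx6 higher. Bmi1, the best known repressor of the locus, was at 77.4 ± 17.1 and 60.6 ± 0.60 CPM, Cbx7 at 45.6 ± 13.02 and 68.0 ± 4.42 CPM and Ezh2 at 66.3 ± 17.3 and 102 ± 22.4 CPM. Suz12 was at 185 ± 46.2 and 140 ± 20.4 CPM and Kdm2b at 143 ± 30.0 and 181 ± 15.9 CPM. Of 8 other regulators of the locus (median -0.10) 1 fell, Smad3, which carries TGF-beta signals to Cdkn2b. Smad3 stood at 157 and 143 CPM in B6 and 66.4 and 54.9 CPM in 129 (a log2 change of -1.31, SE 0.20, with an edgeR adjusted p of 0.035). Its log2 fold change was -1.45 to -1.17 with any 1 library left out. The call was not kept in any of those fits, each of which leaves 1 library in a strain. Among them, the fit without 129 replicate 2 called more genes of the whole table than the main fit. The cause of the loss was not tested. DESeq2 also called Id1 higher, with 13.3 and 18.5 CPM in B6 and 154 and 25.2 CPM in 129.

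Across the 4 libraries, the genes most like each of 3 members were sought among 10064 genes by the Euclidean distance of log2 CPM centred on its mean. Nearest to Cdkn1b were Hist1h2bc (distance 0.075), Hif1a (0.12) and Dpp8 (0.13). Hif1a was at 129 and 103 CPM in B6 and 241 and 125 CPM in 129. Nearest to Cdkn2a were Uqcr11 (0.032), Prkrip1 (0.032) and Cdc37 (0.044). Nearest to Rb1 were Wdr36 (0.018), E2f1 (0.021) and Mcmbp (0.024). With 4 libraries many genes come close to any pattern, and these distances are a description.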

How the data were processed

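Per the submitters' processing notes, the tools were HISAT2 2.2.1 (build mm10), HTSeq 0.13.5, cutadapt 3.4, bcl2fastq 2.20 and DESeq2 1.30.1. The sources used here do not give settings, annotation release or the strand option of counting. The authors deposited whole-number read counts for each gene, not normalized. Reads of 129 were aligned to a B6 reference, which can lose reads at strain variants. Per the labels' protocols, RNA came from trypsin-dissociated cells and the library kit keeps strand.

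Lengths, positions and overlaps came from GENCODE M21 (GRCm38), promoters from RefSeq. Strain was tested with the robust two-sided quasi-likelihood test of edgeR 4.0.16 (R 4.3.3) after filterByExpr and TMM scaling, adjusted by Benjamini-Hochberg over all genes with a threshold of 0.05. The fit was tested on simulated data. DESeq2 1.42.0, limma-voom (limma 3.58.1), other scalings and filters, a replicate block and each library left out were alternatives. No exact permutation test of 2 against 2 libraries can go below 0.333. Intervals of counts cover counting error only. Libraries of a strain were not duplicates (chi-square per gene 55.2 in B6 and 70.4 in 129).

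The members and lists were chosen with earlier results of these data known. Named genes followed a rule: all members, up to 2 called genes per direction and list or else the 2 most abundant, and 18 fixed by name. Mybl2, Pola1, Rnf123, Foxo1, Foxo3, Myc, Pcgf2, Ring1, Cbx6, Id1 and the named cell markers are exceptions, chosen after seeing their values.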

Additional observations from a re-analysis of the deposited data

How the results depend on the processing

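No member was called under any of the 13 alternatives, where the lowest adjusted p of any member was 0.11 (Rbl2). Among the alternatives that kept all 4 libraries, DESeq2 and the replicate block each had 1 member at an unadjusted p under 0.05, Rbl2. Over all genes tested, 4311 and 4094 genes were under that p in these settings. Some fits with a library left out also had members under that p, but such fits leave 1 library in a strain. The count of genes called over the whole table was 457 and became 1021 with upper-quartile factors, 1052 with library totals, 260 without a filter, 272 with at least 5 CPM in 2 libraries, 2455 by DESeq2 and 263 by limma-voom. Leaving out each library gave 0 to 827 calls, with 3251 genes at an unadjusted p under 0.05 where the count was 0 (without B6 replicate 1). Deviations of same-numbered libraries had r = -0.042 over 10262 genes, which are not independent. With 2 libraries per strain, this r cannot show whether the numbers mark a shared batch, and the labels do not say. A replicate block gave 844 calls, and in the pathway lists the block added Cbx6. In the marker lists it gave 2 higher and 4 lower for fibroblasts, 1 and 2 for spermatogonia and 3 and 0 for Sertoli cells. The legacy form of the edgeR test, chosen after the data were seen, gave 406. Cdkn2c dropped out under the 5 CPM filter.

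With each library left out the log2 fold change ran from -0.28 to 0.11 for Cdkn2a, -0.39 to 0.16 for Rbl1, -0.19 to 0.16 for Mcm2, -0.39 to 0.070 for Mcm4, -0.13 to 0.093 for Ccnd3, -0.090 to 0.25 for Cdk2, -0.033 to 0.67 for Ccne1 and -0.39 to 0.13 for Mdm2. With upper-quartile factors, library totals and the 5 CPM filter, Mcm2 was at 0.011, 0.041 and 0.0077 and Ccnd3 at 0.0089, 0.039 and 0.010, against -0.0079 and -0.0050. None of these values passed a test, and the cause was not tested. With the longest transcript as length, Cdkn2a was at 62.7 CPM per kb in place of 47.9, Rb1 at 16.3 in place of 12.6, Cdkn2d at 7.50 in place of 6.78 and Rbl1 at 6.57 in place of 5.33, and Rbl2 stood above Cdkn1b. Counting error limits Cdkn2c most, with 33 to 80 counts.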
